A study of Mus musculus with 2 samples.

Results

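The 10 genes described here are the 6 nuclear receptors of the retinoic acid signal (Rara, Rarb, Rarg, Rxra, Rxrb and Rxrg), the 3 retinal dehydrogenases that make the signal (Aldh1a1, Aldh1a2 and Aldh1a3) and Cyp26b1, an enzyme that removes it. They were chosen by symbol and matched to gene identifiers without version, and all 10 were found among 42462 genes that could be named and 43346 Ensembl genes in all. RNA was measured in hindbrain tissue of embryonic mice of strain B6NCrl, aged 16.5 days, the part of the brain that forms the medulla, pons and cerebellum. The study has a single group of 2 libraries, replicate 1 and replicate 2, each from a pool of tissue of both sexes. The labels name no treatment. Replicate 2 pooled 37 embryos, and for replicate 1 the sources used here give no number. With 1 group of 2 pools no test between conditions was possible, and the values below are levels and their spread. Since this is bulk tissue, a low level can come from few cells with the RNA or from little RNA per cell, which cannot be told apart.

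Retinoic acid is a small lipid signal made from vitamin A. Retinol is oxidised to retinal by alcohol and short-chain dehydrogenases, retinal is oxidised to retinoic acid by the Aldh1a enzymes, and the Cyp26 cytochromes oxidise retinoic acid further and so end the signal. Inside the nucleus, retinoic acid binds a retinoic acid receptor (RAR), which sits on DNA as a pair with a retinoid X receptor (RXR), commonly at direct repeats of a short half-site. In the embryonic hindbrain the signal is known for setting the position of segments through the Hox genes, and in the brain's coverings the meninges are a known source of it.

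The receptors recognise DNA through zinc fingers, and the coding stretch that holds the first of them shows how close the 6 genes are. The 63 bases below run from the first to the last cysteine codon of that finger, in the transcript named, as annotated in GENCODE M21 on GRCm38. Capitals mark bases not shared by all 3 members of the family.
Rara-203: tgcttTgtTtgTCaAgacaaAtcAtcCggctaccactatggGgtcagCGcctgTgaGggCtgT
Rarb-201: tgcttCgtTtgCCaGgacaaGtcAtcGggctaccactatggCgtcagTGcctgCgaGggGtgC
Rarg-201: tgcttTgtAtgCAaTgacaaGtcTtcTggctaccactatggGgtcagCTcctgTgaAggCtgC
Rxra-201: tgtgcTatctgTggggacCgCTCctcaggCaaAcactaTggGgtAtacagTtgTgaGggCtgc
Rxrb-201: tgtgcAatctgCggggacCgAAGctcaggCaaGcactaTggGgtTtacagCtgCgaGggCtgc
Rxrg-201: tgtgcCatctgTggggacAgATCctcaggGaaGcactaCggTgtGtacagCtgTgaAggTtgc
In each family 15 of the 63 bases were not shared by all members. Translated, Rara and Rarb did not differ in any of the 21 residues, and Rarg differed from each of them in 2. The 3 RXR genes did not differ in any of the 21 residues, although their bases differed at 9 to 12 positions. Between a RAR and an RXR, 6 or 7 of the 21 residues differed.

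Promoters were searched for a direct repeat of the half-site AGGTCA, its variant AGTTCA, the form GGGTCA or the form GGTTCA, on both strands, with spacers of 1, 2 or 5 bases, in windows from 250 bases before to 50 after each RefSeq start (GRCm38.p6). The repeat with a spacer of 5 bases occurred in 32 of 32851 windows (0.0974%), and Rarb was the 1 member that held it. Aldh1a3 had no window to search. Of the other genes of the retinoid lists, Cyp26a1 held it too. The 30 bases around each repeat are shown with the half-sites in capitals.
Rarb: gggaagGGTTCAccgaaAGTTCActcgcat
Cyp26a1: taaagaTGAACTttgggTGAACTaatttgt
The Rarb stretch is chr14:16575506-16575535 on the minus strand, with the repeat 53 to 37 bases before the RefSeq start. The quantified transcript Rarb-201 begins 67 bases upstream of that RefSeq start in GENCODE M21, so there the repeat lies within its first exon. The Cyp26a1 stretch is chr19:37697770-37697799 on the plus strand, where the half-sites read on the opposite strand and the repeat lies 32 to 16 bases before the start. Repeats with a spacer of 1 base were in 0.222% of windows and with a spacer of 2 bases in 0.268%. None of these windows was a member's, and of the retinoid lists Bco1 held the repeat with a spacer of 1 base. A match describes letters in a window and shows no binding.

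Total expected counts, the reads a model assigns to genes and which need not be whole, were 42467811 in replicate 1 and 42017008 in replicate 2, spike-ins included. At this depth a gene with 0 counts may still stand for up to 3 counts in that library. The tissue label was checked against 8 hindbrain position markers. Of these, 7 had at least 1 TPM (a level corrected for transcript length and scaled to a fixed total) in both libraries. En2 fell short, with 0.34 TPM in replicate 1 and 0.46 in replicate 2. Over protein-coding genes 63.5% reached 1 TPM in both libraries. Among 12 forebrain markers the median was 1.73 TPM in replicate 1 and 0.06 in replicate 2. The 8 skeletal muscle markers summed to 351 TPM in replicate 1 and 14.1 in replicate 2, and all 8 were past 2-fold higher in replicate 1. The 10 meningeal fibroblast markers summed to 825 TPM in replicate 1 and 473 in replicate 2, and astrocyte and radial glia markers to 2870 and 3528 TPM. Most of the meningeal sum was collagen: Col1a1 had 231 and 88.0 TPM, Col1a2 173 and 95.7, and Col3a1 255 and 156. The meningeal markers next in level moved less, Dcn with 69.5 and 56.9 TPM and Slc6a13 with 51.6 and 46.0. Whether the pools came from separate litters is not stated, so the spread between them may be partly technical.

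All 10 genes were detected, meaning at least 1 TPM in both libraries, where 63.5% of protein-coding genes were. Their median level was 11.3 ± 1.76 TPM (SD, n = 2), against a median of 5.82 TPM over protein-coding genes. The 10 genes were chosen with earlier results of these data known, and Cyp26a1 and Cyp26c1, which were not detected, are not among them. The count and the median may thus partly reflect that choice. By mean TPM the order was Rxrb, Cyp26b1, Aldh1a2, Rxrg, Rara, Rarb, Rarg, Aldh1a1, Rxra and Aldh1a3. The authors deposited a lower and an upper bound on each TPM, with no confidence level given, and 2 genes are called apart here where these bounds did not overlap in either library. Of the 9 neighbouring pairs in the order, 4 were apart: Rxrb over Cyp26b1, Cyp26b1 over Aldh1a2, Aldh1a2 over Rxrg, and Rarg over Aldh1a1. Rxrg was not apart from Rara, Rara from Rarb, Rarb from Rarg, Aldh1a1 from Rxra or Rxra from Aldh1a3.

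**Figure D1:**
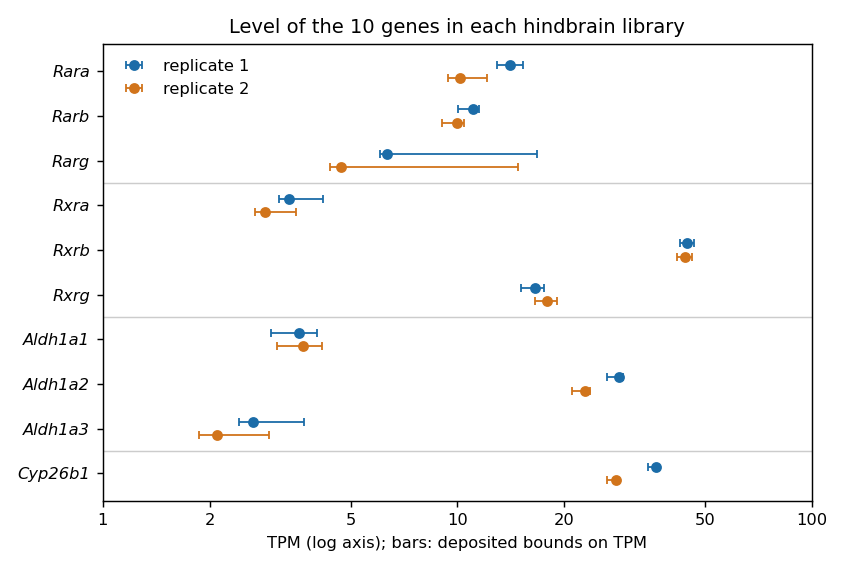
Level of each gene in replicate 1 (blue) and replicate 2 (orange), in TPM on a log axis, with bars for the deposited bounds. Rxrb lies near 44 TPM in both libraries, and Rarg has the widest bounds, from 6.03 to 16.8 TPM in replicate 1.

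The 3 retinoic acid receptors were present together at moderate levels, with none dominant. Their TPM summed to 31.4 in replicate 1 and 24.8 in replicate 2, a mean of 28.1 ± 4.68 (SD, n = 2). Rara made up 42.8% ± 2.66 of that sum, Rarb 37.6% ± 3.55 and Rarg 19.6% ± 0.891 (each SD, n = 2). The SDs give the spread between libraries only. They leave out the wide bounds of Rarg and the overlap of Rarb with the gene Top2b, both described below. None of the 3 pairs among them was apart by the bounds.

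Rara, the alpha receptor (chromosome 11, 98927818 to 98974942, plus strand, ENSMUSG00000037992.12), had 14.04 TPM from 925 counts in replicate 1 and 10.2 TPM from 676 counts in replicate 2. The bounds were 12.9 to 15.3 TPM and 9.43 to 12.1 TPM, so the libraries did not overlap and replicate 1 was the higher. Of 7 quantified transcripts, 3 with a complete coding sequence carried nearly all of the level. Rara-203 held 44.5% of the gene's TPM in replicate 1 and 47.2% in replicate 2, and Rara-204, which starts further downstream, held 12.8% and 18.7%. These 2 have the same coding sequence for 462 residues, and together they made up 61.6% ± 6.04 (SD, n = 2). Rara-202, which starts at 98960412, encodes 459 residues and held 41.5% and 34.1%. It shares 1211 coding bases with Rara-203 and has 169 of its own at the start, where Rara-203 has 178. The first 30 coding bases show the 2 beginnings, with the start codon in capitals.
Rara-203: ATGgccagcaatagcagttcctgcccaaca
Rara-202: ATGtacgagagtgtggaagtcgggggcctt

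Rarb, the beta receptor (chromosome 14, 16430839 to 16819156, minus strand, ENSMUSG00000017491.8), had 11.0 TPM from 813 counts in replicate 1 and 9.96 TPM from 752 counts in replicate 2. Its bounds overlapped between the libraries, 10.1 to 11.5 TPM against 9.06 to 10.5 TPM. A single transcript, Rarb-201, was quantified, at 3034 bases where M21 gives it 3108. In M21 it starts at 16575543, next to the repeat shown above. GENCODE M21 has other Rarb transcripts that start 243680 and 243529 bases upstream of the RefSeq start, and these were not quantified here. The level has a limit in the neighbouring gene Top2b, a DNA topoisomerase read from the opposite strand, which had 60.7 and 54.4 TPM in the 2 libraries. In GENCODE M21, 1793 bases (57.7%) of Rarb-201 lie within exons of Top2b-201, 561 of them coding, between 16430839 and 16435258. Top2b-201 was quantified at 5660 bases, where M21 gives it 10335. Whether the counting used strand is not given, so reads of Rarb and of a long Top2b transcript cannot be told apart in that stretch.

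Rarg, the gamma receptor (chromosome 15, 102234938 to 102257517, minus strand, ENSMUSG00000001288.10), had 6.35 TPM from 393 counts in replicate 1 and 4.70 TPM from 282 counts in replicate 2. Its bounds were the widest of the 10 genes relative to its level, 6.03 to 16.8 TPM and 4.39 to 14.8 TPM, and the posterior mean that the authors deposited beside the TPM was 10.1 and 8.27. The width sits with Rarg-206, a 111-base transcript with 0 counts in both libraries and upper bounds of 9.78 and 9.62 TPM. By posterior mean Rarg-206 took 32.1% and 38.3% of the gene and was the leading transcript in replicate 2. By maximum likelihood Rarg-202 led with 60.4% and 56.4%, and Rarg-201 held 29.95% and 28.28%. These encode 447 and 458 residues and differ in their first 151 and 184 coding bases.
Rarg-202: ATGtacgactgcatggaatcgtttgtcccg
Rarg-201: ATGgccaccaataaggagagactctttgcg
The rest, 9.69% and 15.3%, was assigned to Rarg-204, a 423-base fragment with 5 and 6 counts.

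The retinoid X receptors were the more abundant family and were led by Rxrb. They summed to 64.5 TPM in replicate 1 and 64.7 in replicate 2 (mean 64.6 ± 0.127, SD, n = 2). This was 2.05 times the RAR sum in replicate 1 and 2.61 times in replicate 2. The RAR sum carries the limits of Rarb and Rarg given above. Rxrb made up 68.5% ± 0.912 of the RXR sum, Rxrg 26.7% ± 1.46 and Rxra 4.81% ± 0.546 (each SD, n = 2). All 3 pairs of RXR genes were apart in both libraries.

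Rxrb (chromosome 17, 34031812 to 34038399, plus strand, ENSMUSG00000039656.12) encodes the beta RXR and had 44.6 TPM from 2452 counts in replicate 1 and 43.9 TPM from 2435 counts in replicate 2. It was the most abundant of the 10 genes in both libraries, 14.3-fold above Rxra and 2.56-fold above Rxrg. The level was shared by 2 coding transcripts. Rxrb-202 held 53.0% in replicate 1 and 48.6% in replicate 2, and Rxrb-201 held 39.0% and 40.7%. The coding sequence of Rxrb-202 (410 residues) lies wholly inside that of Rxrb-201 (524 residues), which has 342 coding bases more. Transcripts annotated with a retained intron took 8.01% and 10.7%.
Rxrb-202: ATGccacccccgccactgggctcccccttc
Rxrb-201: ATGtcttgggccactcgtccgcccttcctc

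Rxrg (chromosome 1, 167598384 to 167639623, plus strand, ENSMUSG00000015843.6) encodes the gamma RXR and had 16.6 TPM from 769 counts in replicate 1 and 18.0 TPM from 850 counts in replicate 2. Its bounds overlapped between libraries, 15.1 to 17.5 TPM and 16.5 to 19.1 TPM. It was 5.57-fold above Rxra. Rxrg-201 and Rxrg-204 encode the same 463 residues and together held 72.7% and 65.6%. Rxrg-202, which starts at 167618309 and encodes 340 residues without the first 369 coding bases, held 27.3% and 34.4%.
Rxrg-201: ATGtatggaaattattcccacttcatgaag
Rxrg-202: ATGaactacccatccaccagccctgggtct

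Rxra (chromosome 2, 27676440 to 27762957, plus strand, ENSMUSG00000015846.10) encodes the alpha RXR and had 3.35 TPM from 392 counts in replicate 1 and 2.86 TPM from 353 counts in replicate 2. It stood lowest of the 6 receptors in both libraries. Rxra-201 held 96.4% and 100% of it. A processed transcript without a coding sequence took the other 3.57% in replicate 1.

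Of the enzymes that make retinoic acid, Aldh1a2 carried most of the level. The 3 genes summed to 34.7 TPM in replicate 1 and 28.6 in replicate 2 (mean 31.7 ± 4.31, SD, n = 2). Aldh1a2 made up 80.9% ± 1.61 of this sum, Aldh1a1 11.6% ± 1.82 and Aldh1a3 7.49% ± 0.209 (each SD, n = 2). Aldh1a2 was apart from both of the others, and Aldh1a1 and Aldh1a3 were not apart from each other.

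Aldh1a2 (chromosome 9, 71215789 to 71296243, plus strand, ENSMUSG00000013584.5), the main retinal dehydrogenase of the early embryo, had 28.5 TPM from 1549 counts in replicate 1 and 22.8 TPM from 1272 counts in replicate 2. The bounds, 26.5 to 29.3 TPM and 21.1 to 23.6 TPM, did not overlap, and replicate 1 was the higher. It was 7.04-fold above Aldh1a1 and 10.8-fold above Aldh1a3. Its 1 quantified transcript encodes 518 residues. Meningeal fibroblasts are known to express this gene, and 8 of their 10 markers had a mean of at least 1 TPM. All 8 of those had a lower scaled count in replicate 2, with a median log2 ratio of -0.53, where Aldh1a2 had -0.27. Other lists leaned the same way. Motor neuron markers were lower in replicate 2 in 6 of 6 cases (median -0.50) and endothelial markers in 6 of 7 (median -0.31). Astrocyte and radial glia markers leaned the other way, with 6 of 7 higher in replicate 2 (median 0.43). Among protein-coding genes with a mean of at least 1 TPM, 7355 were lower in replicate 2 and 6488 higher. The part of meningeal fibroblasts or of any other cells in the Aldh1a2 difference was not tested.

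Aldh1a1 (chromosome 19, 20492715 to 20643465, plus strand, ENSMUSG00000053279.6), a retinal dehydrogenase known from dopaminergic neurons, had 3.57 TPM from 175 counts in replicate 1 and 3.68 TPM from 185 counts in replicate 2. The libraries overlapped, with bounds of 2.99 to 4.03 TPM and 3.11 to 4.14 TPM. Of its 31-base words 13.9% also occur in Aldh1a7, a close paralog at 1.46 TPM in replicate 1 and 1.84 in replicate 2, so reads could be split between them. The expected counts of both genes were whole numbers, 72 and 93 for Aldh1a7, so no such split shows in them. Of 7 dopaminergic neuron markers, 5 were detected, beside 63.5% of protein-coding genes. The 2 markers not detected were the dopamine transporter Slc6a3, with 0.40 and 0.47 TPM, and the midbrain dopaminergic factor Pitx3. Pitx3 had 0.68 TPM from 22 counts in replicate 1 and 0.17 TPM from 4 counts in replicate 2. Its upper bounds were 1.98 and 1.02 TPM, so its call is not firm. The markers that were detected are shared with other monoaminergic or hindbrain cells, and which cells held the Aldh1a1 RNA was not tested. Th, the rate-limiting enzyme of catecholamine synthesis, had 8.73 TPM in replicate 1 and 7.69 in replicate 2. Slc18a2, the vesicular monoamine transporter, had 16.92 and 14.96 TPM, Ddc 8.89 and 9.69, and the midbrain and hindbrain factor En1 3.31 and 2.6.

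Aldh1a3 (chromosome 7, 66390890 to 66427517, minus strand, ENSMUSG00000015134.10) was the lowest of the 10 genes, with 2.65 TPM from 146 counts in replicate 1 and 2.10 TPM from 110 counts in replicate 2. Most of this was assigned to Aldh1a3-203, which held 58.8% and 67.1% and has a coding sequence of 531 bases. Of those bases 423 are shared with the full form, Aldh1a3-201, whose 1539 coding bases encode 512 residues and which held 41.2% and 32.9%. In TPM the full form stood at 1.09 in replicate 1 and 0.69 in replicate 2.
Aldh1a3-203: ATGgacaccggcaagccattccttcatgcc
Aldh1a3-201: ATGgctaccaccaacggggctgtggaaaac

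Of the 3 Cyp26 genes that remove retinoic acid, Cyp26b1 was the 1 detected. Cyp26b1 (chromosome 6, 84571414 to 84593908, minus strand, ENSMUSG00000063415.8) had 36.4 TPM from 4205 counts in replicate 1 and 28.1 TPM from 3332 counts in replicate 2. Its bounds, 34.5 to 36.6 TPM and 26.5 to 28.4 TPM, did not overlap, and replicate 1 was the higher. The level differed from the Aldh1a sum by less than the spread between libraries, since that sum was 0.955 times Cyp26b1 in replicate 1 and 1.02 times in replicate 2. Cyp26a1, another retinoic acid hydroxylase, had 0.17 TPM from 7 counts in replicate 1 and 0.07 TPM from 3 counts in replicate 2. Cyp26c1 had 1 count in replicate 1 and 0 in replicate 2, both under 3 counts. Both Cyp26b1 transcripts encode the same 512 residues. Cyp26b1-202 held 85.3% of the gene in replicate 1 and 68.3% in replicate 2, and Cyp26b1-201 the other 14.7% and 31.7%, the largest movement of a transcript share between the libraries among the 10 genes. The quantified lengths of both, 4700 and 4751 bases, differ from those in M21, 4170 and 4157.

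**Figure D2:**
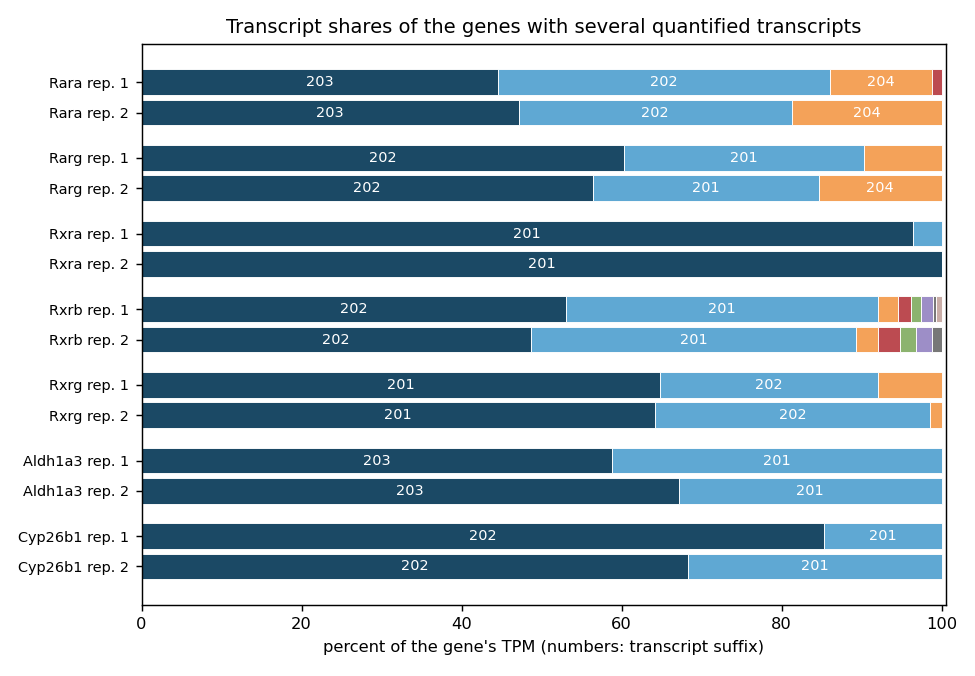
Percent of each gene's TPM assigned to each quantified transcript in replicates 1 and 2, for the 7 genes with more than 1 quantified transcript. Numbers name the transcript, and colours order transcripts by mean share within a gene. The leading transcript is the same in both libraries for each gene.

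Of the members, 7 had more than 1 quantified transcript, and in 7 of 7 the leading transcript was the same in both libraries. Over 9943 detected protein-coding genes with at least 2 transcripts, 91% had the same leading transcript. By posterior mean it was the same for 6 of the 7, Rarg being the exception.

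Between the 2 pools the 10 genes differed little in fold, though some of them differed more than most genes did. From counts scaled by TMM, a method that sets libraries to a common level over most genes, 0 of 10 were past 2-fold. The share past 2-fold was 1.51% of 13843 protein-coding genes with a mean of at least 1 TPM (1.11% higher in replicate 1 and 0.397% higher in replicate 2). At 1.5-fold the count was again 0, beside 4.49% of those genes. By the deposited bounds 3 members did not overlap between the libraries, Rara, Aldh1a2 and Cyp26b1, all higher in replicate 1, beside 31.4% of those genes in either direction. By size of ratio in either direction, Rarg exceeded 92.6% of those genes, Rara 91.5%, Aldh1a3 89.2%, Cyp26b1 84.0% and Aldh1a2 78.1%. The share was 57.1% for Rxrg, 50.8% for Rxra, 38.7% for Rarb, 37.3% for Aldh1a1 and 1.83% for Rxrb.

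On the log2 scale the ratio of replicate 2 over replicate 1 was -0.44 for Rara, with a 95% exact counting interval of -0.58 to -0.29. It was -0.46 for Rarg (-0.69 to -0.24), -0.39 for Aldh1a3 (-0.76 to -0.03), -0.32 for Cyp26b1 (-0.39 to -0.26) and -0.27 for Aldh1a2 (-0.38 to -0.16). Rxrg leaned the other way, with 0.16 (0.02 to 0.30). The intervals of Rarb, Rxra, Rxrb and Aldh1a1 included 0, with ratios of -0.10, -0.14, 0.0045 and 0.09. These intervals cover counting error only. All 10 ratios lay within the central 95% of protein-coding genes, -0.65 to 0.45. Scaling by the spike-in totals instead moved every log2 ratio up by 0.45, and then Rara was at 0.01, Cyp26b1 at 0.13, Aldh1a2 at 0.18 and Rarg at -0.01. Under TMM 7 of the 10 genes were lower in replicate 2 and 3 higher. Among protein-coding genes with a mean of at least 1 TPM, 7355 were lower and 6488 higher. Under spike-in scaling 1 of the 10 was lower and 9 higher, so the direction depends on the scale. The same shift applies to each gene by construction.

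**Figure D3:**
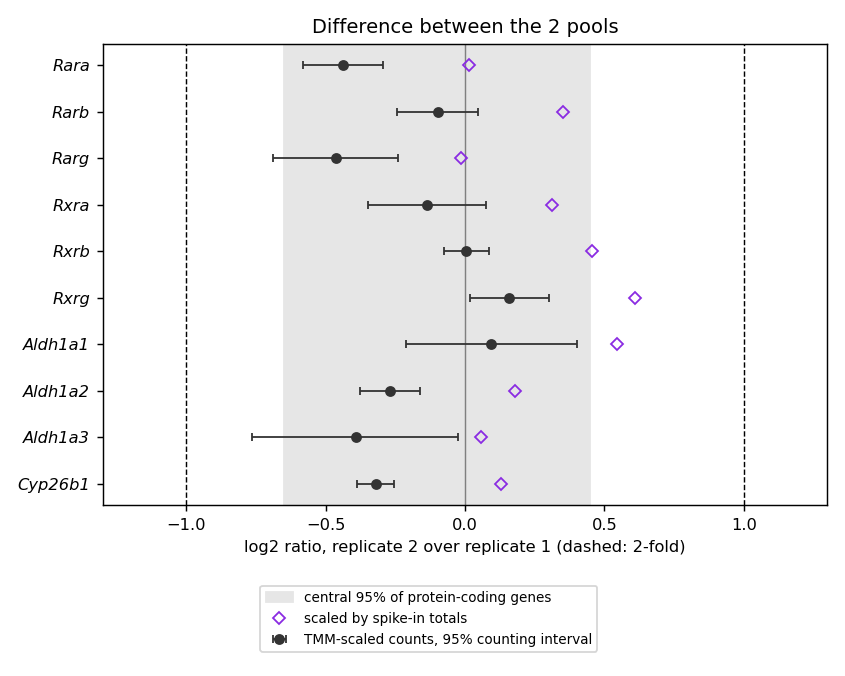
Log2 ratio of replicate 2 over replicate 1 for each gene. Black points are TMM-scaled counts with 95% counting intervals, open diamonds are scaled by spike-in totals, the grey band is the central 95% of protein-coding genes (-0.65 to 0.45) and dashed lines mark 2-fold. All black points lie inside the band, and the diamonds stand 0.45 to their right.

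The genes that carry retinoids and bind retinoic acid were all present. All 7 of 7 were detected, beside 63.5% of protein-coding genes. The median of the 7 was 42.5 TPM against 5.82 over protein-coding genes, and 0 were past 2-fold between the libraries. Ttr, the carrier of thyroxine and of the retinol-binding protein and the main product of the choroid plexus, stood at 1422 TPM in replicate 1 and at 1775 in replicate 2. Fabp5, a fatty acid binding protein that can also bind retinoic acid, had 747 and 843 TPM. Crabp1, a cytosolic retinoic acid binding protein, had 198 and 188 TPM, and was 4.54-fold above Crabp2, which had 44.0 and 41.1 TPM. Stra6, the receptor that takes up retinol, had 13.8 and 9.71 TPM, and its bounds did not overlap between the libraries. The circulating retinol-binding protein Rbp4 had 8.74 and 6.48 TPM.

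Of 12 genes for enzymes that act on retinol, retinal or carotene, 7 were detected, beside 63.5% of protein-coding genes. The highest was Adh5, a ubiquitous alcohol and formaldehyde dehydrogenase, at 155 TPM in replicate 1 and 151 in replicate 2. Dhrs3, which reduces retinal back to retinol, had 46.5 and 43.1 TPM, and was 6.27-fold above Rdh10, the main retinol dehydrogenase of the embryo, with 8.25 and 6.17 TPM. The 2 were apart in both libraries. Retinal reductases Rdh14 (36.7 and 37.9 TPM), Rdh11 (30.1 and 34.3 TPM) and Dhrs4 (18.0 and 18.2 TPM) lay between them. Adh1 had 1.17 and 1.42 TPM. Adh7 (0.27 and 0.55 TPM) and the carotene cleavage enzyme Bco1 (0.30 and 0.35 TPM) were below 1 TPM in both libraries, Dhrs9 had 1 and 3 counts, and Sdr16c5 was listed at 0 in both.

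Lrat, which esterifies retinol for storage, was the 1 gene of these lists with a mean of at least 1 TPM that was past 2-fold. It had 0.39 TPM from 51 counts in replicate 1 and 1.94 TPM from 262 counts in replicate 2, a log2 ratio of 2.36. Replicate 2 was the higher under each scaling.

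**Figure D4:**
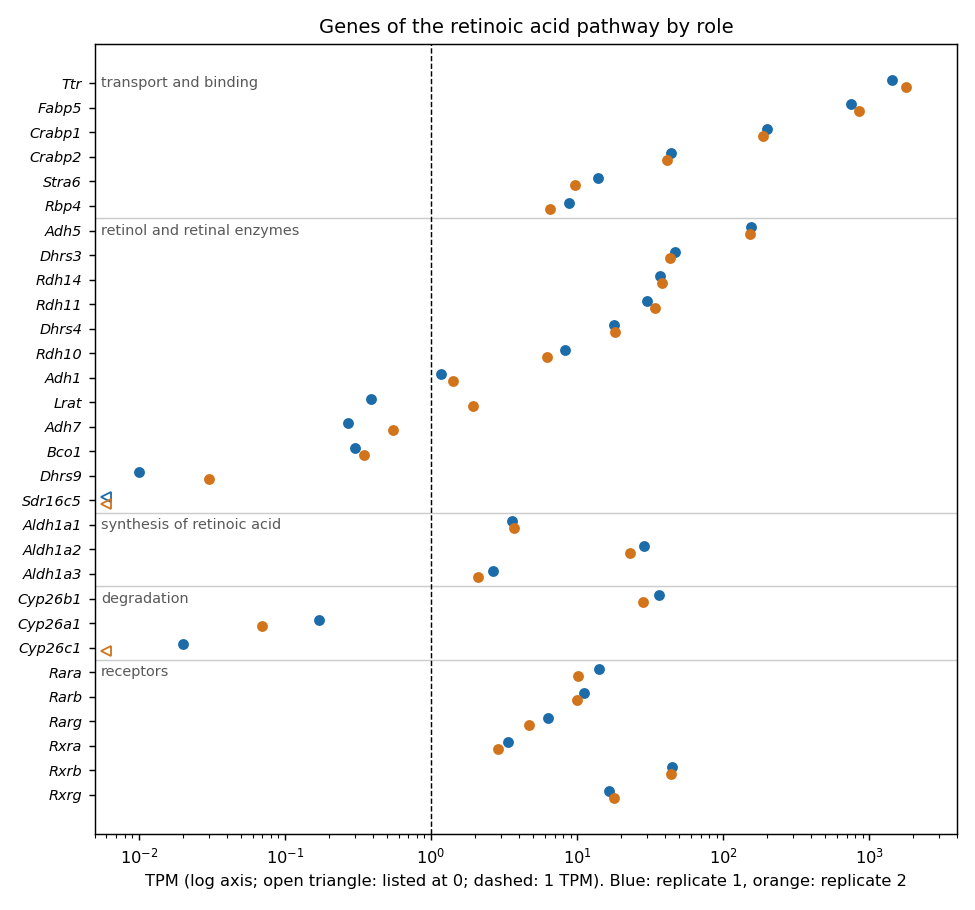
TPM of the reported genes of the retinoic acid pathway by role, on a log axis, in replicate 1 (blue) and replicate 2 (orange). Open triangles mark genes listed at 0 and the dashed line is 1 TPM. Cyp26b1 stands at 36.4 and 28.1 TPM while Cyp26a1 and Cyp26c1 are below 0.2, and Lrat shows the widest gap between libraries among genes with a mean above 1 TPM.

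The coregulators that receptors recruit were detected in 10 of 10 cases, beside 63.5% of protein-coding genes. The median of the coregulators was 20.0 TPM, and 0 were past 2-fold by scaled counts. Hdac3, the deacetylase of the corepressor complex, had 134 TPM in replicate 1 and 139 in replicate 2. The corepressor Ncor1 had 113 and 50.4 TPM, a log2 ratio of -1.17 and so past 2-fold by TPM, where scaled counts gave -0.80. Crebbp, an acetyltransferase coactivator, had 28.2 and 26.9 TPM, and Nrip1, which binds receptors in the presence of ligand, had 24.7 and 22.4 TPM.

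Of 11 other nuclear receptors that pair with RXR, 6 were detected, beside 63.5% of protein-coding genes. None with a mean of at least 1 TPM was past 2-fold. The thyroid hormone receptor Thra stood highest, at 106 TPM in replicate 1 and 120 in replicate 2, above Rxrb in both, although its end overlaps Nr1d1 on the opposite strand, whose reads cannot be told apart without strand. The oxysterol receptor Nr1h2 had 53.8 and 49.5 TPM, and the orphan receptors Nr4a2 and Nr4a1 had 16.1 and 12.8, and 5.5 and 5.6 TPM. The bile acid receptor Nr1h4 had 1 and 6 counts.

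Of 14 genes listed as responsive to retinoic acid, 12 were detected, beside 63.5% of protein-coding genes. The median of the 14 was 9.93 TPM, and 0 were past 2-fold among those with a mean of at least 1 TPM. The homeobox genes Meis1 and Meis2 led with 154 TPM in both libraries and with 111 and 107 TPM. Hoxb5, a Hox gene of the posterior hindbrain and spinal cord, had 100.4 and 111 TPM. The list also holds Dhrs3, given above, and Cyp26a1, which was near 0 although it holds the same kind of repeat as Rarb. Among the hindbrain position markers Gbx2 had 30.3 and 27.9 TPM, Hoxa2 17.4 and 19.6, and Hoxa3 11.6 and 10.8.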

How the data were processed

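RNA over 200 bases was measured from 2 pools of embryonic hindbrain, with 10 ng per library and spike-ins, per the labels. Per the deposited notes, the authors quantified each replicate separately on mm10 with GENCODE M4; the quantifier, its settings and whether it used strand are not stated in the sources used here. Per the file headers, the deposited values are expected counts, TPM, FPKM, posterior means, bounds on TPM (treated as a score, since no confidence level is given) and each transcript's percent of its gene's TPM. GENCODE M21 (GRCm38) gave names and positions, by identifiers without version, and 884 Ensembl genes had no match. Promoter windows came from RefSeq (GRCm38.p6).

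Rounded expected counts were scaled by edgeR 4.0.16 (TMM, run in R 4.3.3), spike-ins left out, with a prior count of 0.5. DESeq2 1.42.0 gave alternative size factors, and other steps used pandas 2.3.3 and SciPy 1.17.1 under Python 3.11.15. Ratios between libraries used protein-coding genes whose mean reached 1 TPM, and carry exact binomial counting intervals of 95%. Spike-ins took 2.18% of replicate 1 and 1.59% of replicate 2 counts. The ratio step was tested on simulated data. Genes were named by rule: all 10 members, all genes of the transport, retinol enzyme and Cyp26 lists, and from the other lists the 4 highest and any past 2-fold. Slc6a3 was named after its values were seen. Some list genes enter the counts but are not reported here. Of the marker lists that are given as sums, only those that bear on a member are named. The members and the 17 lists were chosen with earlier results of these data known.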

Additional observations from a re-analysis of the deposited data

How the results depend on the processing

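No paired analysis was possible because there is 1 group. All 10 genes were detected at 0.5 TPM, by FPKM, by posterior mean, with coding transcripts alone and in each library alone; at 5 TPM 6 were. The count of genes past 2-fold, 0, was 0 under DESeq2 size factors, spike-in scaling, TPM ratios, a prior count of 2, posterior mean counts, other filters, a 1.5-fold limit and scaling without forebrain and muscle markers; by bounds that do not overlap it was 3. The last 2 alternatives and those of the pathway lists were chosen after seeing the data. Leaving out a library gave a median member level of 10.1 to 12.5 TPM, 14 to 15 detected retinoid list genes, 10 of 13 pairs apart against 9, 10 detected members and 7 shared leading transcripts. For single genes and pairs 143 alternatives left the value close to the main one and 17 moved it, 10 of those by spike-in scaling. Many of the 143 could not have moved it, so their number is no measure of stability. Leaving out 1 of 2 libraries always stays within the SD of the 2. FPKM keeps the ratio of 2 genes within a library, and posterior mean counts gave the same ratios as the main counts. Posterior means raised Rarg to 9.19 TPM and lowered the log2 ratio of Rara over Rarg from 1.13 to 0.42 and of Rarb over Rarg from 0.94 to 0.17. Depth limits genes with few counts, such as Cyp26a1, Cyp26c1, Dhrs9 and Sdr16c5.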

Other observations

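Ncor1, the corepressor, differed more in TPM than in counts. Its log2 ratio of replicate 2 over replicate 1 was -0.80 from scaled counts and -1.17 from TPM. The transcript Ncor1-212, quantified at 1695 bases, held 52.4% of the gene's TPM in replicate 1, from 2376 counts, and 17.9% in replicate 2, from 370 counts. Ncor1-201, of 9037 bases, had 1765 and 538 counts, while Ncor1-204, of 8852 bases, had 0 and 846. The full-length transcripts therefore did not keep 1 order between the libraries.

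Of the markers of other cells, Aqp4 and Gfap, both of astrocytes, were past 2-fold higher in replicate 2, with 12.1 and 26.8 TPM and with 4.03 and 13.0 TPM. Col1a1, the fibrillar collagen of the meningeal list, was past 2-fold higher in replicate 1, with 231 and 88.0 TPM. Dlx1 and Dlx5, forebrain interneuron factors, had 7.94 and 0.07 TPM and 3.04 and 0.03 TPM. Ebf1 and Bcl11b, the highest of the same forebrain list, moved less, with 88.7 and 92.1 TPM and with 13.9 and 9.95 TPM.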
